A study of Mus musculus with 38 samples.

Results

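Tumour-infiltrating CD8+ T cells that have met their antigen for long are exhausted, and a small progenitor compartment among them, marked by the transcription factor TCF-1 and the surface receptor Slamf6, can renew itself and give rise to the terminally exhausted cells. The regions described here are 867 ATAC-seq peaks that were open in progenitor exhausted cells of the tumour (Tprog) and much less open in terminally exhausted cells (Tterm) and in naive cells. ATAC-seq uses the Tn5 transposase to insert sequencing adapters where DNA is accessible, and the unit below is normalized reads per peak. The 867 peaks were chosen from the 169323 peaks of the table of OT-1 and naive libraries, by means over its young libraries: 50 or more in OT-1 Tprog, and at least 3 times the mean of OT-1 Tterm and at least 3 times the mean of naive cells. The rule thus read the 2 young OT-1 Tprog, 7 young OT-1 Tterm and 2 young naive libraries, and values of those 11 libraries are given as a description, with no test. The contrasts tested below are between other libraries, but in the fits of aged OT-1 cells the young libraries still enter through the batch term and the shared spread.

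All cells were CD8+ T cells of mice given as Wild type C57BL/6J, apart from the transgenic receptor of the OT-1 cells. The mice were 64-68 weeks old (aged) or 10-12 weeks old (young). Endogenous cells were sorted from B16-OVA melanoma on day 15 as Tprog (Slamf6+ Tim-3-; aged n = 3, young n = 4), as Tterm (Slamf6- Tim-3+; aged n = 3, young n = 5) and, from aged animals, as Slamf6- Tim-3- cells labelled age-associated dysfunctional (Tadys, n = 2). OT-1 cells, whose transgenic receptor sees the ovalbumin that this melanoma line carries, came from the same kind of tumour as Tprog (aged n = 2, young n = 2) and Tterm (aged n = 6, young n = 7), and naive cells came from spleen (aged n = 2, young n = 2). The labels do not say in which hosts the OT-1 cells had been. Each library was a pool of 5000 to 50000 sorted cells, so that p-values measure the spread between these pools, part of which may be technical, and in a pool fewer cells with an open region and less opening per cell cannot be told apart.

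Depth ran from 6.80 to 27.7 megareads in peaks in the OT-1 and naive table and from 4.64 to 87.6 megareads in the endogenous table. Aged OT-1 Tprog library 1 stood apart: its normalized reads summed to 7.92 megareads, against 10.2 to 15.0 megareads in the other 20 libraries of that table. All aged OT-1 Tprog libraries belonged to sequencing batch 6, which also held 1 aged and 2 young OT-1 Tterm libraries, and all naive libraries were batch 3. Every endogenous library carries 1 shared entry for batches 1 and 2, so no batch term could be fitted there and the endogenous comparisons are not adjusted for batch. The CD8 T cell genes were open in every group: peaks at the gene ends of 7 of the 9 genes of a CD8 T cell list summed to 3343 to 6425 in aged and 5556 to 5848 in young OT-1 Tprog, against 4641 to 8407 in the other groups of that table. A list of B cell genes summed to 284 to 310.0 at 6 of its 8 genes in young OT-1 Tprog, against 319 to 429 in young OT-1 Tterm and 388 to 389 in young naive cells. Other lists were not all so low in young OT-1 Tprog. CD4 and regulatory T cell genes summed to 2081 to 2308, and melanoma genes to 1400 to 1445. Natural killer genes summed to 1356 to 1451, myeloid genes to 1354 to 1372 and stromal genes to 258 to 272. The lists differ in their number of peaks, and these sums do not measure purity. No list of B cell, myeloid, melanoma, CD4, stromal or CD8 markers had a gene nearest to any of the 867 peaks, and the natural killer list had 1, Klrb1c.

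Only a few of these peaks hold a gene start, and the bases of 3 such starts are shown because they are the protein-coding gene starts that the set covers whole at the highest levels. Windows of 300 bases around 17 gene starts of the RefSeq table (build GRCm38.p6) touched a peak of the set, 8 of them of protein-coding genes, and 12 lay wholly inside one. The 250 bases before the start are printed for the 3 protein-coding genes of highest young OT-1 Tprog level among those wholly inside: Fam163a, the chemokine receptor gene Ccr6 at a start within the gene body, and the matrix protease gene Mmp10. Capitals mark matches, on either strand, to any of 12 short motifs.
Fam163a, chr1:156205027-156205276, minus strand: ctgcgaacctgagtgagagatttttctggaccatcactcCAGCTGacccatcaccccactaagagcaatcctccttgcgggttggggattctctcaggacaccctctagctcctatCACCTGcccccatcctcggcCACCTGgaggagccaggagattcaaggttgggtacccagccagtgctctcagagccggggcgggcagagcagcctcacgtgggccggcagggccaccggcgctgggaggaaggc
Ccr6, chr17:8242276-8242525, plus strand: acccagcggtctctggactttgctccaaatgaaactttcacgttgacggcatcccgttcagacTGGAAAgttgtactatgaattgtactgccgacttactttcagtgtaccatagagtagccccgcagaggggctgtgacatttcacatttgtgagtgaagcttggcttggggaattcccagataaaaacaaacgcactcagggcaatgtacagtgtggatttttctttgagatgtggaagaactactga
Mmp10, chr9:7502092-7502341, plus strand: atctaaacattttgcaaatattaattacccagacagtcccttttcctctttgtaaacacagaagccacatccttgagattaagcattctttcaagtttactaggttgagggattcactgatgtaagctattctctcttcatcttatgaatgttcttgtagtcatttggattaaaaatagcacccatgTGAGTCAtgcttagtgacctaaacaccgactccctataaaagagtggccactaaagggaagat
The motifs searched were AP-1 (TGANTCA), NFAT (TGGAAA), 2 E-boxes (CAGCTG and CACCTG), RUNX (TGTGGT), TCF/LEF (CTTTGAT), ETS (CAGGAAGT), the NF-kB consensus, NR4A (AAAGGTCA), T-box (AGGTGTGA), POU octamer (ATGCAAAT) and KLF (CCACNCCC). The Fam163a window held 1 CAGCTG and 2 CACCTG, the Ccr6 window 1 TGGAAA, and the Mmp10 window 1 TGANTCA, and no 2 of these matches overlapped. Among all 32817 windows of the same 250 bases, 13.0% held CAGCTG, 17.2% CACCTG, 18.6% TGGAAA and 6.75% TGANTCA. Over the 300-base windows, TGANTCA stood in 5 of the 17 that touched the set and in 7.81% of all. These matches are letters in a sequence and say nothing of a bound factor.

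In the young libraries that chose them, the 867 peaks had a median mean of 113 normalized reads in OT-1 Tprog (lowest 50.01, highest 1054), 24.4 in OT-1 Tterm and 15.1 in naive cells. The median fold over Tterm was 4.35, up to 43.1, and the median fold over naive was 7.23, up to 77.0. Of the 867, 720 met the rule with young Tprog library 1 alone, 784 with library 2 alone and 637 with each. With a fold of 5 in place of 3 the rule kept 262 peaks, and with a fold of 2 it kept 2073. Just inside the level lay a peak within Lipm (50.01) and just outside it one within C1galt1 (49.98). For the fold over Tterm, the nearest inside was a peak within L3mbtl2 (3.002) and the nearest outside one near Tnfsf9 (2.996), and for the fold over naive a peak near Bcas1 (3.001) and one near Med13 (2.999).

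The set is distal. Of the 867 peaks, 45 (5.19%) lay within 1000 bp of an end of a protein-coding gene, 446 (51.4%) elsewhere inside a gene and 376 (43.4%) between genes, and 90 had no such gene within 100000 bp. Among the 35670 peaks with a young OT-1 Tprog mean of 50 or more, 33.0% lay at a gene end. The distal make-up was shared by other sets made from the same means: 5.47% of 475 peaks open only in Tterm and 6.12% of 2518 peaks open in both tumour subsets lay at a gene end. The median width was 852 bp, against 514 bp for all peaks and 1396 bp for those of 50 or more. The peaks had 613 nearest genes, 105 of them with 2 or more peaks of the set and 30 with 3 or more, and 244 peaks had another of the set within 50000 bp. All gene names below are the nearest protein-coding gene within 100000 bp, so for a peak between genes the target gene is a guess from distance.

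The set was read against gene lists by nearest gene, over the peaks with a young OT-1 Tprog mean of 50 or more, of which 867 of 35670 (2.43%) belong to the set. The rule itself asks for low Tterm and naive values and the lists were written with earlier results known, so these shares are a description. Of 25 genes in a progenitor list, 9 were nearest to 17 of the peaks: Cxcr5 (4 peaks), Ccr6 (3), Xcl1, Id3 and Bach2 (2 each), and S1pr1, Slamf6, Kit and Foxp1 (1 each), which is 17 of the list's 248 such peaks (6.85%). A naive and memory list had 6 of 204 (2.94%). Of 16 genes shared with follicular helper T cells, 6 were nearest to 9 peaks: Cxcr5 again, the inhibitory receptor gene Btla, Cd200, the cytokine gene Il21, Il6ra and the B cell coactivator gene Pou2af1, which is 9 of 81 (11.1%). Lists of 20 terminally exhausted genes, 16 effector genes and 10 tissue residency genes had no peak of the set, although 146, 112 and 80 of their peaks reached 50 reads in young OT-1 Tprog. The AP-1 list had 4 of 57 peaks (7.02%), at Jun (3) and Batf3, the cytokine and chemokine list 4 of 98 (4.08%), at Xcl1 (2), Il2 and Il21, and the chemokine receptor list 7 of 70 (10%), at Cxcr5 and Ccr6. The genes nearest to the most peaks came from none of these lists: Cd83 with 8, Tomm20 with 6, and Asap1, Sox6, Arhgef3, Slc1a2, Tbc1d4 and Aff3 with 5 each.

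**Figure D1:**
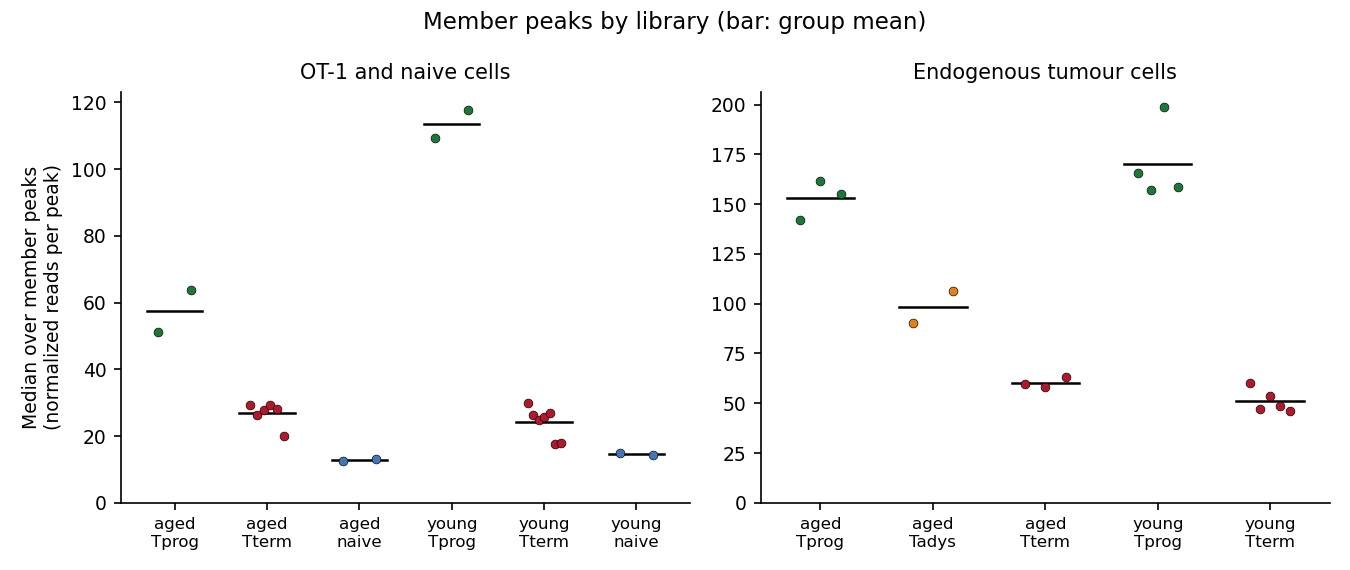
Each point is the median over the 867 peaks (left, OT-1 and naive cells) or over the endogenous peaks that overlap them (right) in 1 library, in normalized reads per peak, and bars are group means. Endogenous Tprog libraries sit between 142 and 199, above Tadys (90.2 and 106) and above every Tterm library (46.0 to 63.0).

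Whether the regions were also open in the animals' own tumour T cells was read in the endogenous table, which was made from other libraries. Of the 867 peaks, 846 overlapped a peak of that table by at least 50% of the shorter of the pair, at 841 distinct endogenous peaks, all of which were tested, and 21 had no match. In young animals 790 of the 841 peaks (93.9%) were called higher in Tprog than in Tterm and none was lower, where 11.3% of all 71756 tested peaks were higher and 14.3% lower (limma on log2 of normalized reads plus 1, Benjamini-Hochberg adjusted p under 0.05). Their median log2 difference was 1.72, against 0.01 over all tested peaks. Every Tprog library was above every Tterm library at 770 of the 841 (91.6%), against 10.5% of all tested peaks. In aged animals 569 (67.7%) were higher in Tprog than in Tterm and none was lower, against 5.37% and 6.75% of all, with a median log2 difference of 1.25 against -0.01, and at 692 (82.3%) the libraries did not overlap, against 14.1% of all. Of the 846 peaks with a match, 572 overlapped an endogenous peak called higher in Tprog at both ages. The like share of all tested peaks was not counted, and it can be no more than the 5.37% called in aged cells.

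**Figure D2:**
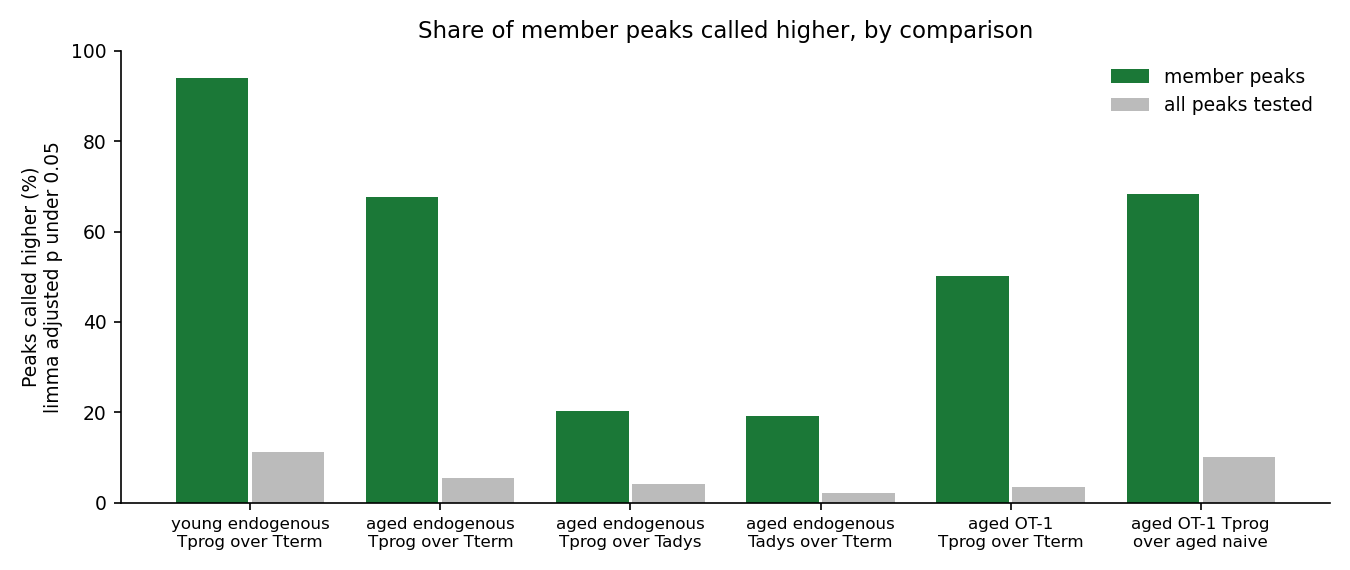
Bars give the percentage of tested peaks called higher in the first-named group (limma adjusted p under 0.05), for the peaks of the set and for all tested peaks of the table. In the 2 endogenous comparisons of Tprog with Tterm the set reaches 93.9% in young and 67.7% in aged cells, against 11.3% and 5.37% of all peaks. The aged OT-1 bars come from a fit that also holds young libraries.

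Among receptor genes, Ccr6, which encodes a chemokine receptor for Ccl20, had a peak of the set next to its gene end (chr17:8233228-8235043, mm10). In aged endogenous cells its overlapping peak held 342, 504 and 555 normalized reads in Tprog, against 86.98, 122 and 133 in Tterm (log2 difference 2.02 ± 0.24, adjusted p 1.34e-06). In young endogenous cells it held 442, 540.5, 754 and 760.4 in Tprog, against 74.02, 89.5, 90.2, 105 and 119 in Tterm (log2 difference 2.68 ± 0.19, adjusted p 1.66e-10). Tprog and Tterm libraries did not overlap at either age, and Tprog libraries were the higher. Cxcr5, the receptor that brings follicular lymphocytes to Cxcl13, had its strongest peak at a gene end (chr9:44525768-44527410). It held 841, 869, 909 and 1010.0 in young endogenous Tprog, against 367, 424, 445, 456 and 474 in young endogenous Tterm (log2 difference 1.07 ± 0.13, adjusted p 5.24e-07). In aged cells it held 988, 1032 and 1057 in Tprog, against 465, 599 and 667 in Tterm (log2 difference 0.84 ± 0.16, adjusted p 0.00051). The peak was thus open in both subsets and higher in every Tprog library at both ages. Of the 3 endogenous peaks of Cxcr5, 1 at 22270 bp from the gene did not pass in either age. Slamf6 itself was used for the sort, and its peak (chr1:171915621-171916508) was higher in Tprog at both ages (young log2 difference 1.32 ± 0.17, adjusted p 9.17e-07; aged log2 difference 0.98 ± 0.203, adjusted p 0.00141), which only checks the labels.

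Among regulators of transcription, Bach2, a repressor that restrains effector differentiation, had an intragenic peak (chr4:32461346-32462297). Its overlapping endogenous peak was wider (chr4:32461123-32463752). That peak held 186, 215, 275 and 333 in young endogenous Tprog, against 30.3, 47.8, 47.9, 60.00 and 62.7 in young Tterm (log2 difference 2.33 ± 0.24, adjusted p 2.8e-08). In aged cells it held 169, 226 and 228 in Tprog, against 42.2, 59.4 and 59.4 in Tterm (log2 difference 1.94 ± 0.29, adjusted p 3.45e-05). No Tprog library came down to the level of a Tterm library. Sox6, a transcription factor gene better known from red cell and muscle development, had 5 peaks of the set within it. The strongest (chr7:115494186-115495808) held 776, 823 and 827 in aged endogenous Tprog, against 193, 218 and 225 in aged Tterm (log2 difference 1.93 ± 0.24, adjusted p 2.88e-06), with a like difference in young cells (log2 difference 2.09 ± 0.197, adjusted p 7.08e-09). All 4 endogenous peaks of Sox6 that were tested were higher in Tprog at both ages. Weaker regulators followed at lower levels: the NF-kB subunit gene Rela (log2 difference 1.399 ± 0.29, adjusted p 0.000496 in young; log2 difference 1.24 ± 0.35, adjusted p 0.0169 in aged) and the quiescence factor gene Foxp1 (log2 difference 1.53 ± 0.29, adjusted p 0.000212 in young; log2 difference 1.35 ± 0.35, adjusted p 0.0102 in aged) passed at both ages. Egr2 and Batf3 passed in young cells (log2 1.49 ± 0.26 and 0.88 ± 0.32), and in aged cells gave adjusted p of 0.0969 and 0.505.

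Among cytokine genes, the peak nearest to Il21, a cytokine of follicular helper cells, was almost closed in Tterm (chr3:37183041-37183729, intergenic). It held 139, 149, 187 and 243 in young endogenous Tprog, against 8.95, 10.8, 11.4, 12.6 and 18.8 in young Tterm (log2 difference 3.75 ± 0.35, adjusted p 6.36e-09). In aged cells it held 92.2, 135 and 139 in Tprog, against 10.3, 14.9 and 28.99 in Tterm (log2 difference 2.79 ± 0.43, adjusted p 4.57e-05). The lowest Tprog library was several times above the highest Tterm library at both ages. Close by, the peak nearest to Il2, the growth factor gene of T cells, was open in every group (chr3:37172960-37175257, intergenic). It held 684, 752 and 808 in aged endogenous Tprog, against 374, 377 and 463 in aged Tterm (log2 difference 0.89 ± 0.18, adjusted p 0.00123), and the young difference was larger (log2 difference 1.46 ± 0.15, adjusted p 3.04e-08). Both peaks lie in the stretch between Il2 and Il21, the one named for Il21 within the lncRNA gene Gm12532 of the RefSeq annotation, and which gene each acts on was not tested.

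The regions whose bases are printed above behaved as follows. The Fam163a peak (chr1:156204615-156206813) was higher in Tprog than in Tterm in young endogenous cells (log2 difference 1.92 ± 0.15, adjusted p 5.5e-10). In aged endogenous cells it averaged 487 ± 7.76 in Tprog (n = 3) and 170.1 ± 12.6 in Tterm (SD, n = 3; log2 difference 1.51 ± 0.18, adjusted p 2.28e-06). The Ccr6 peak over the printed start (chr17:8241770-8242718) was lower than the one at the gene end, with 203 ± 27.2 in aged endogenous Tprog and 93.4 ± 4.66 in aged Tterm (SD, n = 3 each; log2 difference 1.103 ± 0.25, adjusted p 0.00315). Mmp10, which encodes stromelysin-2, had a peak at each end of the gene. The one over its start (chr9:7501068-7502400) averaged 223 ± 41.4 in aged endogenous Tprog and 30.8 ± 15.2 in aged Tterm (SD, n = 3 each; log2 difference 2.902 ± 0.37, adjusted p 4.42e-06). The one at the other end (chr9:7509718-7510566) averaged 527 ± 131 in aged endogenous Tprog and 106 ± 52.6 in aged Tterm (SD, n = 3 each; log2 difference 2.38 ± 0.28, adjusted p 1.31e-06). Both Mmp10 peaks were also higher in aged Tprog than in Tadys, which averaged 73.4 ± 35.8 and 121 ± 49.7 (SD, n = 2; adjusted p 0.0171 and 0.000351). Among aged OT-1 cells the start peak of Mmp10 did not pass (log2 difference 1.23 ± 0.61, adjusted p 0.169), and the other did (log2 difference 3.37 ± 0.51, adjusted p 7.94e-05).

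The 41 peaks named by rule followed the same direction in endogenous cells. They include peaks already described, such as Ccr6, Cxcr5, Bach2, Sox6 and Il21, so their count is no further evidence. All 41 were called higher in Tprog than in Tterm in young animals, beside 93.9% of the set and 11.3% of all tested peaks. In aged animals 35 of the 41 were, beside 67.7% of the set and 5.37% of all tested peaks. Among the strongest, the peak within Asap1, a GTPase-activating protein gene, averaged 1227 ± 128 in young Tprog (n = 4) and 507 ± 55.4 in young Tterm (SD, n = 5; log2 difference 1.27 ± 0.13, adjusted p 1.55e-08). The peak within Lrig1, which encodes a restrainer of growth factor receptors, averaged 905 ± 35.2 in aged Tprog and 247 ± 51.3 in aged Tterm (SD, n = 3 each; log2 difference 1.89 ± 0.196, adjusted p 2.64e-07). The peak nearest to Xcl1, a chemokine gene whose product draws cross-presenting dendritic cells, averaged 257 ± 20.9 in young Tprog (n = 4) and 45.6 ± 11.2 in young Tterm (SD, n = 5; log2 difference 2.501 ± 0.21, adjusted p 1.04e-09), and in aged cells 217 ± 27.4 in Tprog and 82.8 ± 7.603 in Tterm (SD, n = 3 each; log2 difference 1.38 ± 0.25, adjusted p 0.000411). The peak nearest to Klrb1c, a natural killer cell receptor gene, averaged 144 ± 44.2 in aged Tprog and 23.9 ± 7.22 in aged Tterm (SD, n = 3 each; log2 difference 2.53 ± 0.36, adjusted p 2.14e-05). The peak of Tbc1d10a averaged 763 ± 20.4 in aged Tprog and 484 ± 61.1 in aged Tterm (SD, n = 3 each; log2 difference 0.66 ± 0.17, adjusted p 0.0097).

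**Figure D3:**
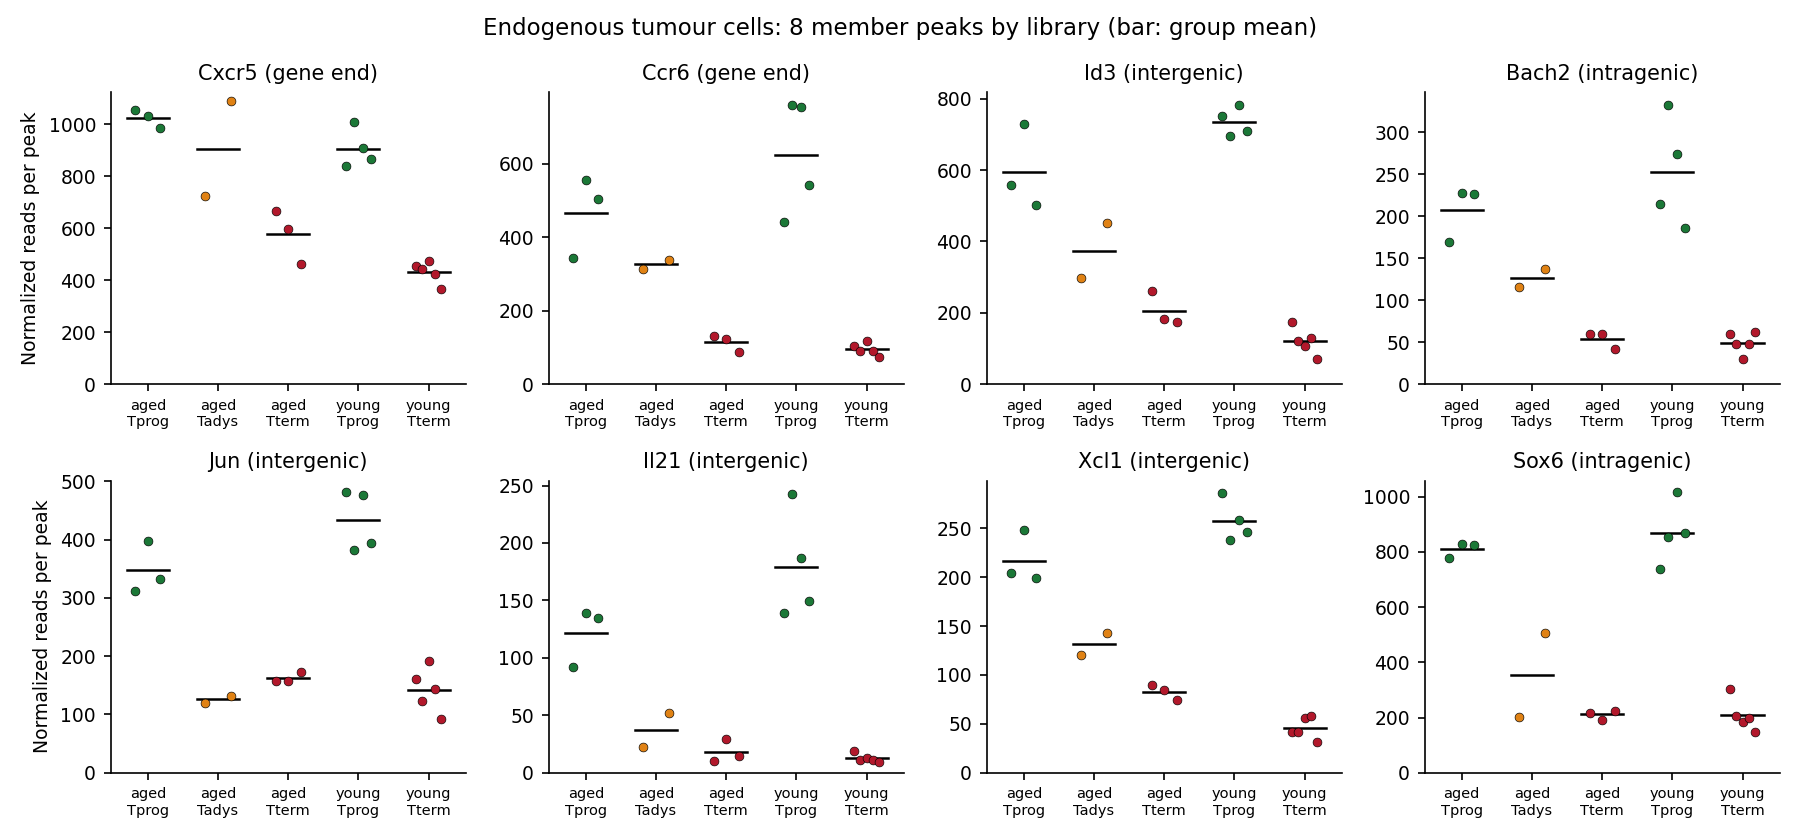
Points are single endogenous libraries and bars are group means, in normalized reads per peak, for 8 peaks of the set named by their nearest gene. Tprog libraries lie above Tterm libraries at every one of the 8, and Tadys libraries read 725 and 1089 at Cxcr5 and lie below aged Tterm at Jun (120.2 and 132).

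Counted by list, 15 of the 16 tested peaks of progenitor genes, 7 of 8 of follicular helper genes and all 4 of AP-1 genes were higher in young endogenous Tprog than in Tterm, and 13, 6 and 3 in aged cells, where the whole set had 93.9% in young and 67.7% in aged. With peaks outside the set included, 171 of 345 progenitor peaks were higher in young Tprog and 20 lower, with a median log2 of 0.65, and in aged cells 110 were higher and 9 lower. For AP-1 genes 13 of 76 peaks were higher in young Tprog and 9 lower. The lists were written with earlier results of these data known, so their direction is no independent evidence. The peak within Kit, a receptor gene for stem cell factor, did not pass in aged endogenous cells (chr5:75640448-75641577). It held 191, 292 and 334 in aged endogenous Tprog, against 200.5, 248 and 347 in aged Tterm (log2 difference 0.04 ± 0.29, adjusted p 0.963), so that the groups overlapped, while it was called higher in Tprog in young endogenous cells (log2 difference 0.68 ± 0.24, adjusted p 0.0337) and in aged OT-1 cells (log2 difference 2.23 ± 0.56, adjusted p 0.00889).

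In OT-1 cells, the question was whether the regions that separated young Tprog from Tterm also separated aged Tprog from aged Tterm. The answer by calls depended on the fit. With the young libraries in the fit, through the batch term and the shared spread, 434 of the 865 tested peaks (50.2%) were higher in aged Tprog than in aged Tterm and none was lower, against 3.39% and 11.3% of 84091 tested peaks, with a median log2 difference of 1.54 against -0.15. At 460 of them (53.2%) both Tprog libraries were above all 6 Tterm libraries, against 7.78% of all tested peaks, and 856 of the 867 had the higher mean in aged Tprog. The fitted difference was positive at 97.2% of the set and 44.9% of all tested peaks. Over the whole set the median was 51.2 and 63.8 in the 2 aged Tprog libraries, against 20.0 in the aged Tterm library of the same batch and 26.4 to 29.3 in the 5 of the other batches. With aged libraries alone and a batch term 28 peaks (3.24%) were called higher, against 0.221% of all tested peaks. With aged libraries alone and no batch term there were 190 (22.0%, against 2.7%), and within batch 6, where 1 Tterm library stands alone and is assumed to vary like the others, 2 (0.231%, against 0.00476%). In the fit of aged libraries with a batch term and in that within batch 6, 845 of the 865 differences were positive, with a median log2 of 1.46 in each. Both set aged Tprog against the same 1 aged Tterm library of batch 6, so they are 1 reading and not 2. The share of positive differences over all tested peaks was not counted for these fits. Without aged Tprog 2, 360 peaks (41.6%) were higher and 17 lower, against 4.87% and 31.1% of all tested peaks. The differences and adjusted p of single peaks in aged OT-1 cells, above and below, come from the fit with the young libraries. Its batch term is estimated in part from young Tterm libraries that the rule read. Without that term 32.1% of the set were called higher, against 4.06% of all tested peaks, and the median log2 difference of the set was 1.04. The single differences and their order thus lean in part on libraries that chose the peaks.

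Among the 41 peaks named by rule the largest fitted differences were at Slc1a2, Sox6, Tbc1d4, Lonrf2, Id3 and Ccr6. Sox6 (chr7:115494186-115495808) held 275 and 375 normalized reads in aged OT-1 Tprog, against a lowest value of 54.7, a median of 112 and a highest value of 200.0 in aged OT-1 Tterm (log2 difference 2.799 ± 0.33, adjusted p 4.35e-06). Slc1a2, a glutamate transporter gene with 5 peaks of the set, held 171 and 177 at its strongest (chr2:102732731-102734183, intragenic) in aged Tprog, against a lowest value of 19.1, a median of 37.95 and a highest value of 54.4 in aged Tterm (log2 difference 3.07 ± 0.46, adjusted p 6.46e-05). Ccr6 held 161 and 165 in aged Tprog, against a lowest value of 31.4, a median of 52.6 and a highest value of 67.6 in aged Tterm (log2 difference 2.48 ± 0.403, adjusted p 0.000173). None of these 3 peaks had an aged Tterm library as high as an aged Tprog library. Tbc1d4, which encodes a regulator of glucose transporter traffic, held 135 and 159 in aged Tprog (chr14:101480567-101481293, intragenic), against a lowest value of 23.7, a median of 41.03 and a highest value of 75.8 in aged Tterm (log2 difference 2.66 ± 0.46, adjusted p 0.000311). Id3, an inhibitor of E proteins, held 199 and 342 at a peak 36460 bp from the gene (chr4:136106476-136107365) in aged Tprog, against a lowest value of 30.2, a median of 81.7 and a highest value of 120.1 in aged Tterm (log2 difference 2.57 ± 0.46, adjusted p 0.000429). Lonrf2 had an intergenic peak (chr1:38777079-38778168) with 243 and 429 in aged Tprog, against a lowest value of 26.5, a median of 69.3 and a highest value of 117 in aged Tterm (log2 difference 2.63 ± 0.46, adjusted p 0.000344). These 3 were likewise separated without overlap.

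Other strong peaks of the set were not called between aged OT-1 Tprog and aged Tterm. The highest peak of all in young Tprog, nearest to the ribosomal protein gene Rpl11 (chr4:136088292-136090464, intergenic), held 382 and 805 in aged Tprog, against a lowest value of 284, a median of 388 and a highest value of 497 in aged Tterm (log2 difference 0.66 ± 0.302, adjusted p 0.136). The Il2 peak held 206 and 418 in aged Tprog, against a lowest value of 125, a median of 189.8 and a highest value of 267 in aged Tterm (log2 difference 0.64 ± 0.35, adjusted p 0.202). At both peaks the 2 Tprog libraries lay apart from each other, and the lower of them fell within the Tterm range. The Rpl11 peak lies in the same stretch between Rpl11 and Id3 as the Id3 peak above. Bach2 held 35.3 and 41.9 in aged Tprog, against a lowest value of 9.53, a median of 11.3 and a highest value of 25.6 in aged Tterm, without overlap but at a low level (log2 difference 1.699 ± 0.74, adjusted p 0.116). In all, 25 of the 41 peaks named by rule were called higher in aged OT-1 Tprog than in Tterm. By list, 11 of 17 progenitor peaks, 4 of 9 follicular helper peaks, 5 of 7 chemokine receptor peaks and 2 of 4 AP-1 peaks were, beside 50.2% of the whole set and 3.39% of all tested peaks.

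**Figure D4:**
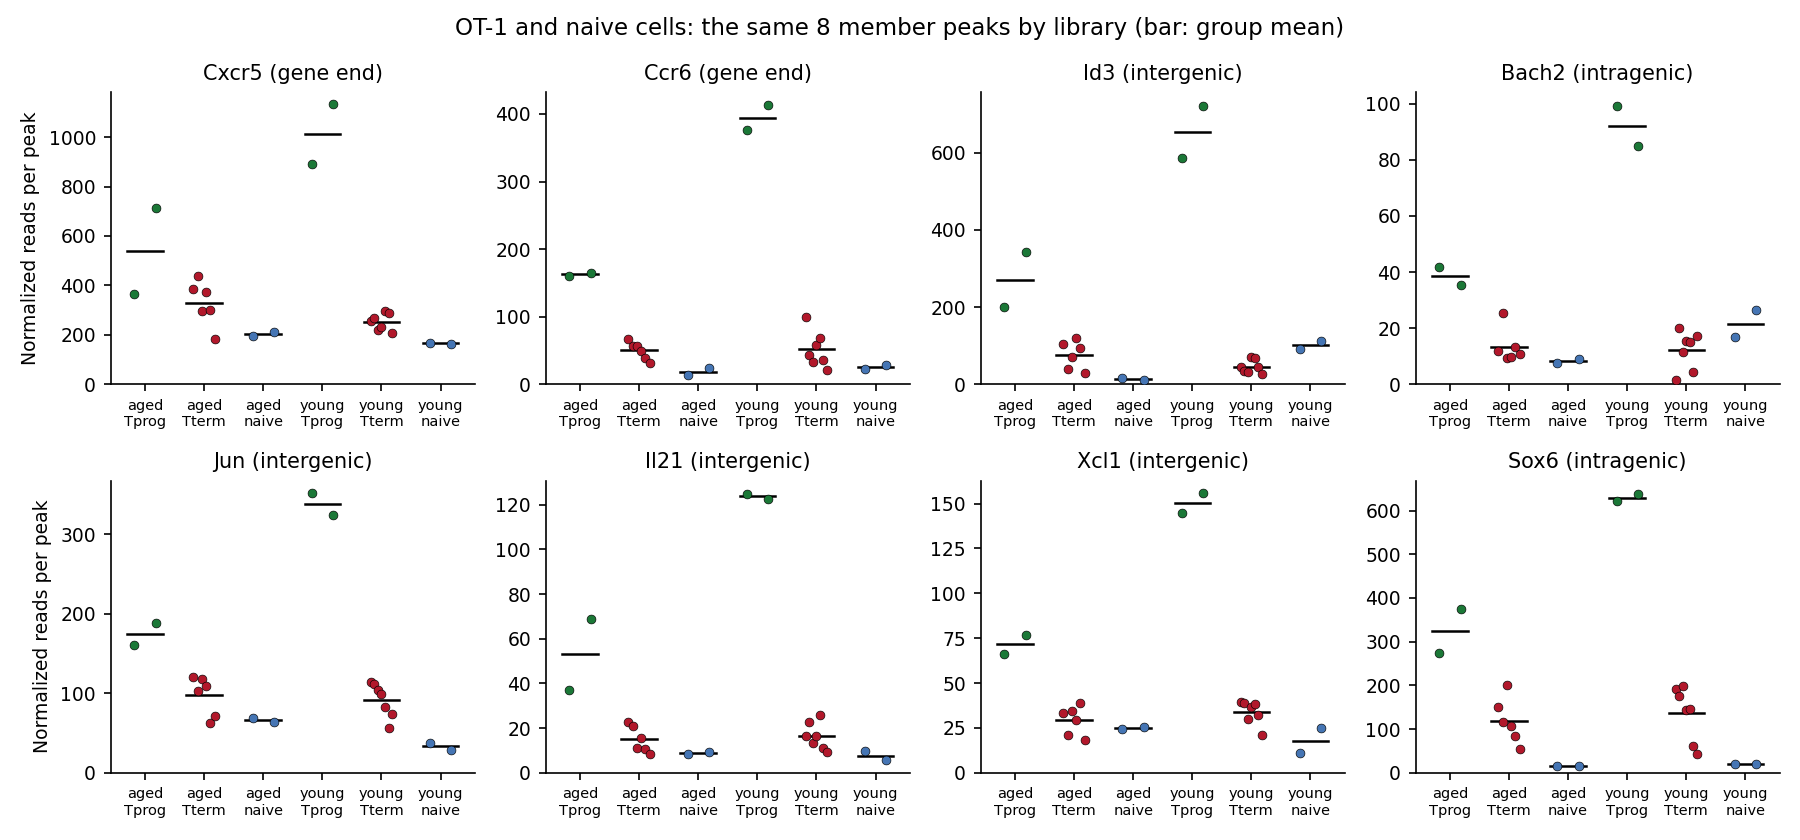
Points are single libraries and bars are group means, in normalized reads per peak, for the same 8 peaks in OT-1 cells of the tumour and naive cells of the spleen. The young libraries chose these peaks. In aged Tprog the Ccr6 peak reads 161 and 165, above aged Tterm and below young Tprog (377 and 413).

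Against aged naive cells, 590 of the 865 tested peaks (68.2%) were higher in aged OT-1 Tprog and none was lower, where 10.0% of all tested peaks were higher and 18.1% lower, with a median log2 difference of 2.42 against -0.36. These calls come from the fit with the young libraries, whose batch term is estimated in part from young Tterm libraries that the rule read. Without that term 62.8% of the set were called higher, against 7.83% of all tested peaks, and the median log2 difference of the set was 1.93. With aged libraries alone and no batch term 51.2% were, against 4.99%. At 727 peaks (84.0%) both Tprog libraries were above both naive libraries, against 21.7% of all tested peaks. Sox6 was nearly closed in naive cells, with 275 and 375 in aged OT-1 Tprog, against 14.4 and 15.96 in aged naive cells (log2 difference 5.83 ± 0.399, adjusted p 9.8e-10). The Id3 peak held 9.805 and 15.1 in aged naive cells (log2 difference 5.09 ± 0.56, adjusted p 4.79e-07). The Il2 peak was not called, with 206 and 418 in aged OT-1 Tprog, against 234 and 279.7 in aged naive cells (log2 difference 0.19 ± 0.42, adjusted p 0.759). All naive libraries were of batch 3 and from spleen, so cell state, tissue and batch cannot be told apart here, and with aged libraries alone and a batch term 39.0% were called, against 4.49% of all tested peaks. Without aged Tprog 2, 13 peaks of the set were lower than in naive cells (27.4% of all tested peaks), and without aged Tprog 1, 1 was (11.2%). At 21 peaks both aged naive libraries were above both aged Tprog libraries, against 37.2% of all tested peaks. These were named after their values were seen, and the highest was near Chst15 (chr7:132402230-132403449), with 218 and 223 in aged OT-1 Tprog, against 299 and 304 in aged naive cells. The 2 young naive libraries, which the rule required to be low, held 77.1 and 74.6 there.

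By age, every one of the 867 peaks had a lower mean in aged than in young OT-1 Tprog, with a median log2 ratio of -0.96, against -0.20 over all peaks with 50 or more in young Tprog. This is a description: the rule picked peaks that were high in the 2 young libraries, so that a lower aged value is favoured by the choice, and the aged libraries were of another sequencing batch. Peaks of the set took up 0.712% to 0.752% of the normalized reads in aged OT-1 Tprog, against 1.23% to 1.31% in young OT-1 Tprog. In Tterm and naive cells the median ratio over the 867 was 0.15 and -0.16, against -0.003 and 0.27 over all peaks with 50 or more in young Tprog. The rule read the young libraries of these groups too, and none of these ratios was tested. On aged means, 68 of the 867 met the same rule, and 100 peaks of the whole table did. Among the peaks named by rule these were Lonrf2, Id3, Slc1a2, Ccr6, Tbc1d4 and Il21.

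In endogenous Tprog, whose libraries the rule did not read, age could be tested. None of the 841 peaks was called between aged and young endogenous Tprog by limma, against 0.166% of all tested peaks (0.0822% higher and 0.0836% lower in aged). At an unadjusted p under 0.05 there were 140 of the 841 (16.6%) and 9029 of all 71756 (12.6%). The quasi-likelihood test of edgeR called 0 of the 841, and DESeq2 called 7, all lower in aged, where it called 0.465% of all tested peaks lower. The median log2 difference was -0.21, against 0.0012 over all tested peaks. All aged libraries were below all young ones at 146 peaks (17.4%), against 5.31% of all tested peaks, and above them at 21 (2.5%), against 6.07%. Ccr6 held 342, 504 and 555 in aged endogenous Tprog, against 442, 540.5, 754 and 760.4 in young (log2 difference -0.41 ± 0.22, adjusted p 0.448), and the groups overlapped. Cxcr5 held 988, 1032 and 1057 in aged, against 841, 869, 909 and 1010.0 in young (log2 difference 0.18 ± 0.15, adjusted p 0.654), also with overlap. The difference between Tprog and Tterm itself was tested for a change with age, as an interaction. None of the 841 peaks was called, and none of the 71756 either. At an unadjusted p under 0.05 there were 125 of the 841 and 5676 of all, and edgeR and DESeq2 called 0 of the 841. The median of the interaction over the 841 was -0.44, against -0.01 over all, that is a smaller gap in aged cells, and the larger count of calls in young than in aged animals is not by itself a difference between the ages. Il21 had an interaction of -0.96 ± 0.55 (adjusted p 0.668) and Id3 one of -1.12 ± 0.31 (adjusted p 0.539).

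The Slamf6- Tim-3- cells of aged animals lay between the other subsets. The median over the 841 peaks was 142, 155 and 162 in the 3 aged Tprog libraries, against 90.2 and 106 in Tadys, and aged Tterm held 58.0 to 63.0. Of the 846 peaks with an endogenous match, 628 had a Tadys mean between those of aged Tterm and aged Tprog, 111 one at or above Tprog and 109 one at or below Tterm. The last 2 classes share 2 peaks, at which aged Tterm was not below aged Tprog. The like counts over all peaks were not made. By limma 171 of 841 (20.3%) were higher in aged Tprog than in Tadys and none was lower, where of all tested peaks 4.04% were higher, 2.61% lower and 6.65% called either way, with a median log2 difference of 0.66 against 0.01. In turn 162 (19.3%) were higher in Tadys than in aged Tterm, against 2.06% of all, and 1 was lower, against 4.23% (6.3% either way), with a median of 0.62 against -0.03. At 409 peaks (48.6%) all aged Tprog libraries were above both Tadys libraries, against 17.5% of all tested peaks, and at 404 (48.0%) both Tadys libraries were above all aged Tterm libraries, against 17.7%. The 2 comparisons share the Tadys libraries, so their counts are not independent.

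With only 2 Tadys libraries these counts moved with single libraries. Higher in aged Tprog than in Tadys were 4.64% without Tadys 1 and 28.5% without Tadys 2, against 1.35% and 6.83% of all tested peaks. Without aged Tprog 2 the share was 9.27%, against 1.33% of all, without aged Tprog 3 it was 11.8%, against 2.06%, and with only the compared groups fitted it was 6.66%, against 0.361%. Higher in Tadys than in aged Tterm were 12.7% without Tadys 1, against 0.877% of all tested peaks, and 10.1% without Tadys 2, against 916 of all 71756. Without aged Tterm 1, 2 and 3 the shares were 12.0%, 12.6% and 8.09%, against 0.956%, 1.64% and 0.786% of all, and with the compared groups alone 2.97%, against 0.322%. In the other direction, 21 peaks of the set were lower in Tadys than in aged Tterm without Tadys 2, against 6.11% of all tested peaks, and 1 to 3 without any other of these libraries.

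Some single regions were higher in Tprog than in Tadys. Jun, the AP-1 subunit gene, had a distal peak (chr4:95099234-95101014 in the endogenous table) with 311, 332 and 398 in aged Tprog, against 120.2 and 132 in Tadys (log2 difference 1.45 ± 0.25, adjusted p 0.00135), where aged Tterm held 157, 158 and 173. Adk, the adenosine kinase gene, had an intragenic peak (chr14:21112268-21113582) with 588, 783 and 914 in aged Tprog, against 246 and 399.6 in Tadys (log2 difference 1.25 ± 0.24, adjusted p 0.00345), and aged Tterm held 261, 286 and 344. The Il21 peak held 92.2, 135 and 139 in aged Tprog, against 22.04 and 51.7 in Tadys (log2 difference 1.797 ± 0.48, adjusted p 0.0235), and Gpr15, a homing receptor gene, also had its peak (chr16:58701537-58703983) higher in aged Tprog (log2 difference 1.18 ± 0.22, adjusted p 0.0024). At these peaks every Tprog library was above both Tadys libraries. Others were higher in Tadys than in aged Tterm. Ccr6 held 315 and 339 in Tadys, against 86.98, 122 and 133 in aged Tterm (log2 difference 1.53 ± 0.26, adjusted p 0.00138). Btla held 103 and 134 in Tadys at its intergenic peak (chr16:45310364-45311020), against 32.4, 38.8 and 52.2 in aged Tterm (log2 difference 1.52 ± 0.36, adjusted p 0.012), and aged Tprog held 88.4, 120.5 and 129.6. Lonrf2 held 345 and 553 in Tadys, against 109, 151 and 213 in aged Tterm (log2 difference 1.51 ± 0.25, adjusted p 0.000933), and was lower in Tadys than in aged Tprog as well (log2 of Tprog over Tadys 0.84 ± 0.25, adjusted p 0.0401). The Slamf6 peak, which the sort bears on, read 258 and 386 in Tadys, against 262, 317 and 365 in aged Tterm (log2 difference 0.02 ± 0.23, adjusted p 0.972). The 1 peak called lower in Tadys than in aged Tterm with all libraries in the fit, singled out after its values were seen, lay 58160 bp from Pde3b (chr7:114356318-114357063): it averaged 11.8 ± 2.58 in Tadys (n = 2) and 86.8 ± 28.9 in aged Tterm (n = 3; log2 difference -2.74 ± 0.39, adjusted p 0.000317), with 112 ± 39.7 in aged Tprog (n = 3).

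Cd83, which encodes a surface glycoprotein of activated lymphocytes and dendritic cells, had the most peaks, 7 of them on one side of the gene and 1 on the other side. In aged OT-1 cells 7 of the 8 were called higher in Tprog than in Tterm with the young libraries in the fit. The strongest (chr13:43777584-43778552, intergenic) held 189.7 and 372 in aged OT-1 Tprog, against a lowest value of 59.2, a median of 183 and a highest value of 230.4 in aged OT-1 Tterm, and the lower Tprog library fell inside this range. The means were 281 ± 129 in aged Tprog (n = 2) and 165 ± 58.4 in aged Tterm (SD, n = 6). The fitted difference (log2 difference 1.74 ± 0.33, adjusted p 0.000829) takes in a batch term estimated in part from young Tterm libraries that the rule read. The 8 overlapped 6 endogenous peaks. All 6 were higher in young endogenous Tprog than in Tterm, 2 of 6 in aged, and none differed by the test between aged Tprog and Tadys. At the strongest, aged endogenous Tprog held 669, 688 and 741, against 605 and 944 in Tadys (log2 difference -0.11 ± 0.22, adjusted p 0.791), and aged Tterm held 321, 528 and 542. Around Tomm20, a mitochondrial import receptor gene, the 6 peaks overlapped 5 endogenous ones, of which all 5 were higher in Tprog than in Tterm in young animals and 3 in aged. For Slc1a2 and Aff3 all 5 were higher in Tprog at both ages.

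**Figure D5:**
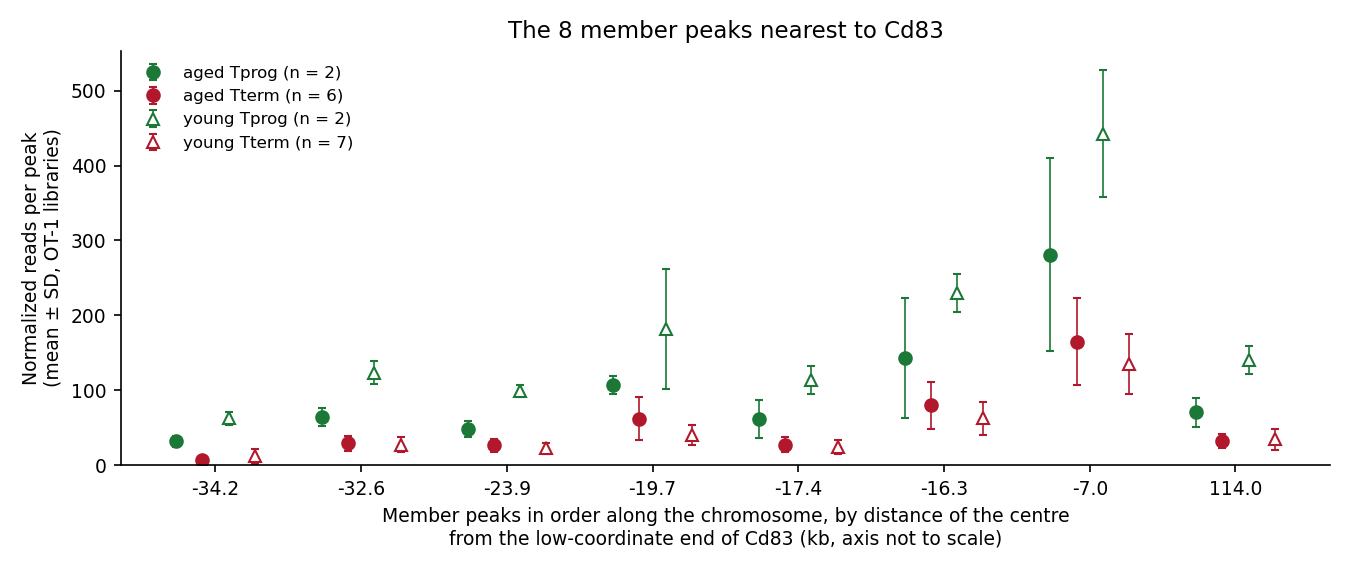
Each position is 1 of the 8 peaks nearest to Cd83, in order along the chromosome, with the distance of its centre from the low-coordinate end of the gene in kb. Symbols give the mean and SD of normalized reads in aged Tprog, aged Tterm, young Tprog and young Tterm OT-1 libraries. The young means chose the peaks. Means of aged Tprog run up to 281, above the aged Tterm mean at each of the 8.

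No Tterm comparison called 64 of the 867, with the aged OT-1 calls taken from the fit that held the young libraries. The like share of all peaks was not counted, as the 2 tables hold different peaks. The median young OT-1 Tprog level of the 64 was 68.9, against 121 for the other 803. The 21 without an endogenous peak were narrow, with a median width of 409 bp, against 859.5 bp for the 846 with one. In the 2 endogenous comparisons of Tprog with Tterm no peak of the set was lower in Tprog. In a set chosen by the mirrored rule the differences ran the other way: of the 460 tested peaks open only in Tterm, 95.9% were lower in young endogenous Tprog than in Tterm and 85.0% in aged, and in aged OT-1 Tprog against Tterm 91.8% of 475 were. Of all tested peaks 14.3%, 6.75% and 11.3% were lower. Another set was open in naive cells and Tprog, each at least 3 times Tterm. Of its 184 tested endogenous peaks 95.7% were higher in young Tprog than in Tterm and 84.2% in aged. In aged OT-1 cells 76.3% of 194 were. The calls over Tterm were thus shared with that set, beside 93.9%, 67.7% and 50.2% for the 867. The place of Tadys was shared as well. Of the 184 peaks, 34.2% were higher in aged Tprog than in Tadys and 28.8% higher in Tadys than in aged Tterm. Of all tested peaks 4.04% and 2.06% were. Of the 460 peaks open only in Tterm, 30.2% were lower in aged Tprog than in Tadys and 31.5% lower in Tadys than in aged Tterm. Of all tested peaks 2.61% and 4.23% were. No test was made between the sets.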

How the data were processed

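Accessibility was measured by ATAC-seq in 38 libraries (paired-end reads of 50 bp) of sorted mouse CD8+ T cells. The deposited values are signal: reads per peak divided by a size factor, in 1 table for OT-1 and naive cells and 1 for endogenous cells, which were normalized separately. Per the submitters' processing notes the authors used Bowtie2 2.2.9, SAMtools 1.3.1, Picard 2.8.0, MACS2 2.1.1 and DESeq2 1.28.1, with build mm10. No read shift and no step of merging or pooling peaks is given by the sources at hand. Dividing by what 1 read is worth returned whole reads for 100.0% of values in every library (tolerance 0.01).

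Tests took in peaks that averaged at least 10 in their table and used limma 3.58.1 (trend) on log2 of the value plus 1, all groups of a table in 1 fit, a term for batch 6 in the OT-1 and naive table, and Benjamini-Hochberg adjustment over all tested peaks (threshold 0.05). A fold change on this scale understates the change of low peaks. On the recovered reads edgeR 4.0.16 (quasi-likelihood) called 608 and DESeq2 1.42.0 called 634 of the 865 peaks higher in aged OT-1 Tprog than in Tterm, against 6.38% and 6.54% of all tested peaks. Both fits also held the young libraries and the batch term. R was 4.3.3 and Python 3.11.15. The fits were tested on simulated data. Members were carried to the endogenous table where peaks overlapped by at least 50% of the shorter. Endogenous values are those of the overlapping endogenous peak, whose ends can differ from the coordinates printed. Genes are the nearest protein-coding gene of RefSeq GRCm38.p6 within 100000 bp, with a gene end taken as 1000 bp. The named peaks are the 16 with the highest young OT-1 Tprog mean, the strongest peak of each list gene and the strongest peak of each of the 8 genes with the most peaks, beside the nearest peaks on both sides of each threshold. A few others are named after their values were seen, and the text says so, or because their gene start is printed. The peaks and the 20 gene lists were chosen with earlier results of these data known. Alternatives were other pseudocounts, filters, scalings, tools, designs and overlaps, and leaving out each library. No genome sequence was used, so motifs were searched only around gene starts.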

Additional observations from a re-analysis of the deposited data

Results flagged for a closer look

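Among 168 sets of 4 to 10 libraries (the median over the 867 peaks and the peaks named by rule, in each group), 11 held a library that stood apart from the rest of its group by Dixon's criterion at the 95% level, and chance flags about 1 set in 20. The median over all 867 peaks was 19.99 in aged OT-1 Tterm 6, below the other 5 aged OT-1 Tterm libraries, and this library is the only aged Tterm library of the batch that holds the aged Tprog libraries. The Myo3b peak was low in the same library (79.57) and in young OT-1 Tterm 7 (75.76), which is of batch 6 too. The Dapl1 peak was high in aged OT-1 Tterm 1 (75.56) and the Bach2 peak in aged OT-1 Tterm 2 (25.56). In young OT-1 Tterm, the Tbc1d10a peak was high in library 3 (269.1), and the Slamf6 and Il6ra peaks in library 1 (138.0 and 47.81). In endogenous cells, the Klrb1c peak was high in young Tprog 3 (160.7), the Adk peak in young Tterm 2 (540.7) and the Nsmce1 peak in young Tterm 1 (352.5). The values are normalized reads per peak.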

How the results depend on the processing

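Shares are percentages of the tested peaks of the set called higher in the first-named group. Over all tested peaks the fits reported gave 3.39 for aged OT-1 Tprog against Tterm and 10.0 against aged naive. For endogenous Tprog against Tterm they gave 11.3 in young and 5.37 in aged. They gave 4.04 for aged Tprog against Tadys and 2.06 for Tadys against aged Tterm. Aged OT-1 Tprog against Tterm gave 50.2 in the fit reported, 32.1 without the batch term, 22.0 and 3.24 with aged libraries alone without and with it, 0.231 within batch 6, and 37.3 to 50.8 leaving out 1 library. Against aged naive it gave 68.2, 39.0 with aged libraries alone and a batch term, and 53.2 to 64.0 leaving out 1. Young endogenous Tprog against Tterm gave 90.4 to 93.7 and aged 54.0 to 65.8 leaving out 1, against 8.86 to 11.2 and 3.35 to 5.01 of all tested peaks. Between aged and young endogenous Tprog, called either way, it was 0.832 by DESeq2, 0.119 with equal totals and with quantile scaling, 0.476 with the compared groups alone, 0.251 at a fold of 2 in the rule and 0.0 to 0.238 leaving out 1. Of all tested peaks DESeq2 called 0.486 higher and 0.465 lower in aged, and equal totals 0.0739 and 0.149. Quantile scaling gave 0.114 and 0.128 and the compared groups alone 0.125 and 0.078. In these settings the peaks called in the set were all lower in aged. Aged Tprog against Tadys gave 6.66 with the compared groups alone and 4.64 to 28.5 leaving out 1, and Tadys against aged Tterm 2.97 and 8.09 to 12.7. The cause was not tested. None of the alternatives reversed the sign of a median log2 difference of the set. At the 41 peaks named by rule, none reversed a called difference of Tprog against Tterm or aged naive cells. Single peaks in the comparisons with Tadys and between ages, and peaks named otherwise, were not checked for this. Deviations of same-numbered Tprog and Tterm libraries correlated at 0.20 and 0.14 in aged OT-1 cells. There the Tprog and Tterm libraries of these numbers were of different batches, and the deviations of the 2 Tprog libraries mirror each other. In endogenous cells the correlations were -0.27, -0.16 and 0.06 in aged and -0.04, -0.20, 0.03 and -0.03 in young. These values cannot settle whether same-numbered libraries came from the same animals, and the fits reported used no pairing. With the replicate block the shares were 21, 52.9, 91.7, 66.1, 0.0, 16.8 and 15.6 in the order above, and 0.0 for the age by subset test. Of all tested peaks it called 1.39, 7.3, 9.59, 4.95, 3.04 and 1.31 higher, in that order without the comparison of ages. Size factors over gene-end peaks, chosen after the low total of aged OT-1 Tprog 1 was seen, moved the median log2 difference of all peaks from -0.15 to 0.34 against Tterm, and that of the set from 1.54 to 2.03. Depth limits the low peaks most, where 1 read is worth up to 3.84 normalized reads.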

Other observations

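At 54 of the 867 peaks the aged naive mean was at least that of aged OT-1 Tprog, although the young naive mean had been required to be low. Such peaks were rarer in the set than elsewhere. The fitted difference of aged Tprog over aged naive was positive at 93.2% of the set and 39.25% of all tested peaks. The Galnt14 peak (chr17:73512710-73514678, singled out after its values were seen) read 116 and 165 in aged OT-1 Tprog, against 277 and 234 in aged naive cells, and 11.6 and 11.2 in young naive cells. The Kcnh1 peak (chr1:192339217-192341063, singled out likewise) read 81.5 and 59.5 in aged OT-1 Tprog, against 174 and 171 in aged naive cells, and 11.6 and 15.2 in young naive cells. Both ages of naive cells came from spleen in batch 3.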
